A study of Mus musculus with 4 samples.

Results

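The genes described here are the protein-coding neighbours of Zeb1 on the proximal end of mouse chromosome 18. The rule that picks them uses position and gene type: a gene start below 15 Mb on chromosome 18 in build mm10 and the type protein-coding in the deposited table, leaving out Zeb1 itself and Impact. It was set with earlier results of these data known. The rule gave 54 genes of 54446 in the table, of which 4 are typed as pseudogenes in the GENCODE M21 annotation. With Zeb1 starting at 5591860, they begin with Vmn1r238, 2.47 Mb to its left (toward lower coordinates), and end with Taf4b, 9.19 Mb to its right, with 11 genes on the left and 43 on the right. The nearest members were Zfp438, 0.257 Mb to the left, and Arhgap12, 0.544 Mb to the right.

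The RNA came from retinal endothelial cells, which form the inner lining of vessels, taken at postnatal day 16 from C57BL/6 mice; every library holds 100 cells collected by flow cytometry. There were 2 control libraries and 2 libraries from mice whose titles read Zeb1-CKO and whose genotype field says Zeb1 was knocked down. The sources used here give neither the Cre line nor the Zeb1 allele, nor whether the controls carried that allele or a Cre. No label says that each library is from its own animal. The p-values therefore reflect the spread among these 4 samples, with each gene's spread drawn toward that of other genes by the test. That spread may be technical.

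Zeb1 encodes a zinc-finger repressor that keeps epithelial genes off in mesenchymal and endothelial cells. A targeted allele is inherited together with the DNA around it, and where the allele was made in cells of another mouse strain, donor-strain DNA can remain beside it through backcrossing. Genes close to a targeted locus are the least often separated from it by recombination, and differences in them that come with that DNA are known as passenger effects. The comparison asks whether the neighbours of Zeb1 differed between genotypes, and whether the size of the difference changed with distance. A difference carried by linked DNA and one that follows from the loss of Zeb1 cannot be told apart in this design.

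Values are FPKM, fragment counts scaled to transcript length and library size, so levels can be compared between genes. Depth was estimated from the spacing of the lowest values, without an independent check. The estimates ran from 11400000 to 22300000 fragments per library, with control 2 the lowest. The sorted cells carried all 10 endothelial markers examined, whose summed level was 3800 and 4539 in controls against 4308 and 4713 FPKM in Zeb1-CKO. Most of each sum was Cldn5, at 2692 and 3428 in controls against 3133 and 3500 FPKM in Zeb1-CKO. Of the 10, 6 had a positive and 4 a negative log2 fold change, with a median of 0.11 and 0 called. Summed levels were lower in both Zeb1-CKO libraries than in both controls for 4 other lists: pericyte markers lay at 1663 and 2006 in controls against 1447 and 1522 FPKM in Zeb1-CKO, smooth-muscle markers at 393 and 536 against 229 and 308, microglial and myeloid markers at 33.4 and 95.9 against 13.1 and 26.3, and red-cell markers at 2312 and 2764 against 672 and 1200. The 6 epithelial markers summed to 0.562 and 1.12 in controls against 194 and 230 FPKM in Zeb1-CKO, and all 6 were called higher. Inner retinal neuron markers, at 2.99 and 9.06 against 5.11 and 10.7 FPKM, and those of Müller glia and astrocytes, at 279 and 310 against 291 and 326 FPKM, overlapped between genotypes. In such bulk samples, fewer cells of a type and less RNA per cell cannot be told apart.

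Zeb1 itself (chromosome 18, 5591860 to 5775467, forward strand) was at 10.7 and 11.1 in controls against 8.66 and 7.07 FPKM in Zeb1-CKO. Both Zeb1-CKO libraries were below both controls, but the log2 fold change of -0.43 (SE 0.15) did not pass, with a limma adjusted p of 0.235. The allele is not given, and a value for the whole gene would not isolate an altered part of it, which limits what it says about the labels.

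Of the flanking genes, 1 differed between genotypes by the test used: Colec12, which encodes a collectin-family scavenger receptor of the cell surface, was lower in Zeb1-CKO cells. The other members that could be tested, among them the 7 within 1 Mb of Zeb1, did not pass. A gene was tested if its mean over the 4 libraries was at least 1 FPKM, which 37 of the 54 members reached, and a call was an adjusted p under 0.05 (limma on log2(FPKM + 1), Benjamini-Hochberg over all 13651 tested genes). The 1 call of 37 is 2.70%, against 3.13% of all tested genes called in either direction, 2.23% called higher and 0.901% called lower, so the members' share was near that of all genes. On the rest of chromosome 18, 8 of 278 tested protein-coding genes were called, or 2.88%.

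The other counts were also near those of all genes. An unadjusted limma p under 0.05 was found in 6 of the 37 members (16.2%), against 17.9% of all tested genes. In 19 members, both libraries of 1 genotype lay above both of the other, so that the genotypes did not overlap (51.4%), 11 of them lower and 8 higher in Zeb1-CKO, against 49.4% of all tested genes (22.3% lower and 27.1% higher). The median log2 fold change was -0.05 over the members, 0.02 over all tested genes and 0.04 over the tested protein-coding genes of the rest of the chromosome. Leaving out 1 library put the median of the members between -0.0881 (without control replicate 2) and 0.00567 (without Zeb1-CKO replicate 2), so its sign is not settled. Without regard to sign, the median was 0.16 over the members, 0.21 over all tested genes and 0.22 on the rest of the chromosome. No tested member had a log2 fold change beyond 1 in either direction, whereas 4.28% of all tested genes did. This count of 0 depends on the setting: Psma8 was at -1.14 with a pseudocount of 0.1, -1.03 after rescaling to equal sums, -1.11 without control replicate 2 and -1.01 without Zeb1-CKO replicate 1. Map3k8 was at -1.22 without control replicate 1 and -1.29 without Zeb1-CKO replicate 2.

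**Figure D1:**
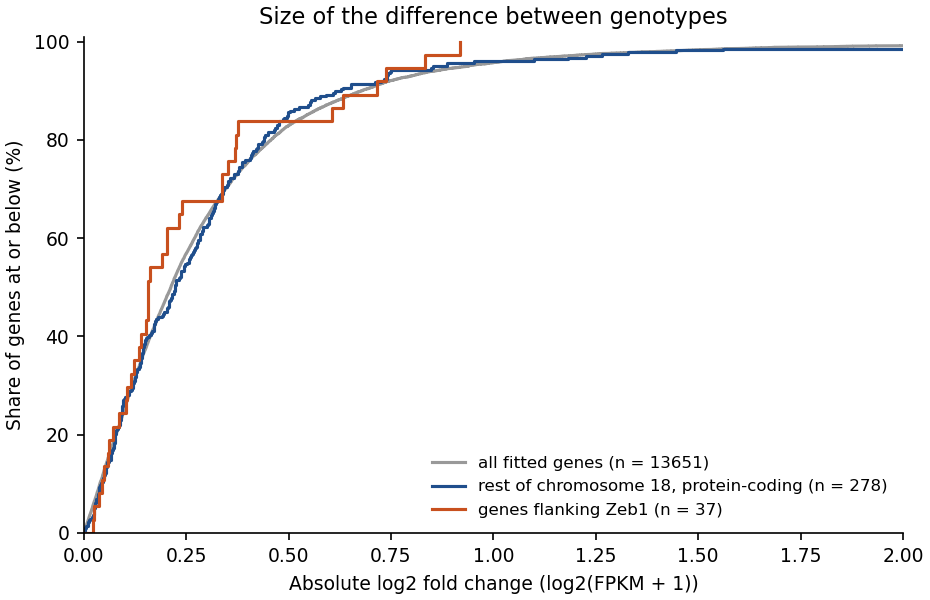
Cumulative share of genes (vertical axis, percent) with an absolute log2 fold change at or below the value on the horizontal axis, for the 37 tested genes flanking Zeb1, the 278 tested protein-coding genes of the rest of chromosome 18 and all 13651 tested genes; the axis ends at 2. The curve of the flanking genes runs near or above the others from 0.15 to 0.35, and ends at Colec12, whose log2 fold change was -0.92.

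The median level of the tested members was 8.70 FPKM against 5.49 FPKM over all tested genes and 7.34 FPKM on the rest of the chromosome. Between replicates, the median absolute log2 difference over the members was 0.09 for the 2 controls and 0.20 for the 2 Zeb1-CKO libraries. For 32 of the 37 tested members (86.5%) the 95% interval of the log2 fold change lay within 1 of 0, that is, short of a doubling or halving on this scale. The share was 78.9% of all tested genes, 83.0% of all tested protein-coding genes and 82.7% of those on the rest of the chromosome. The 5 other members were Map3k8, Colec12, Tmem241, Ankrd29 and Psma8.

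**Figure D2:**
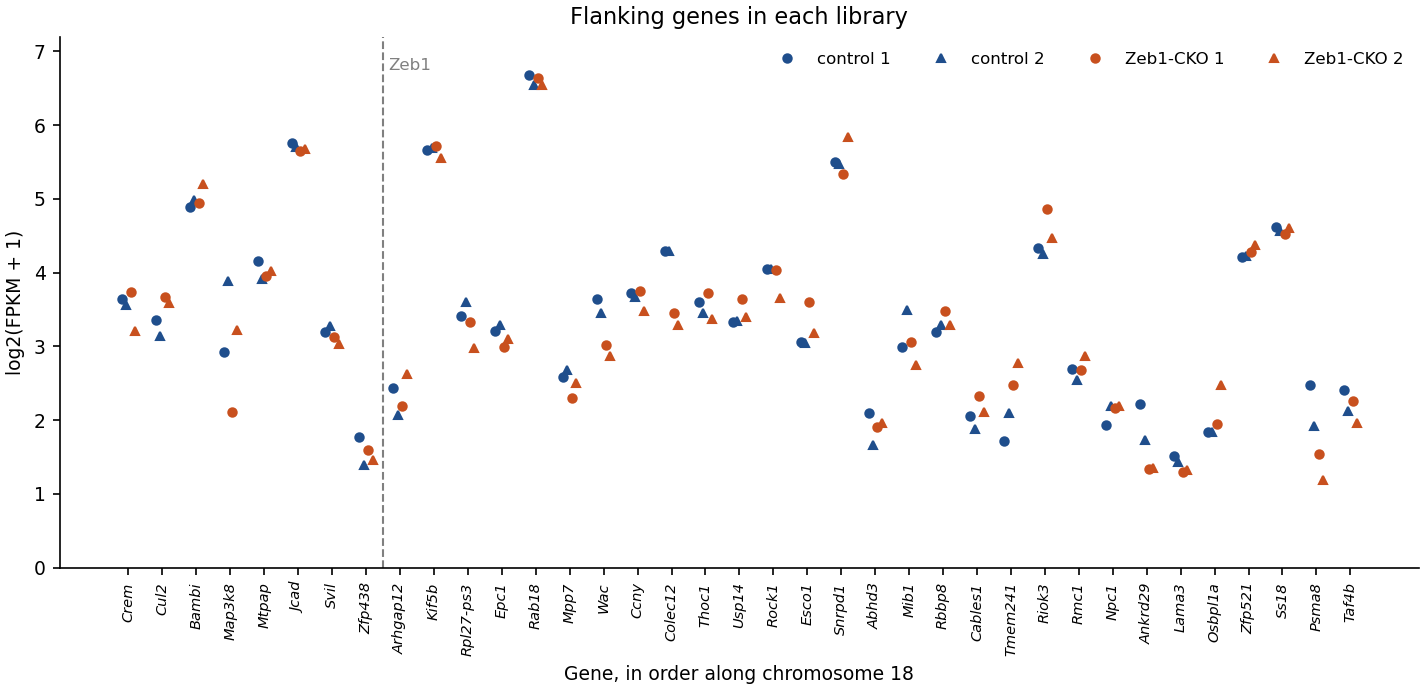
Level of each of the 37 tested genes flanking Zeb1 as log2(FPKM + 1) (vertical axis) in the 4 libraries, with genes in order along chromosome 18 (horizontal axis) and a dashed line at the place of Zeb1; blue marks controls, orange Zeb1-CKO, circles replicate 1 and triangles replicate 2. Levels run from Zfp438 and Lama3 at under 3 FPKM to Rab18 at 92.3 FPKM or more, and in Colec12 both Zeb1-CKO libraries sit clearly below both controls.

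None of the closest neighbours of Zeb1 passed the test. All 7 members under 1 Mb away were tested, with log2 fold changes from -0.35 to 0.15, 0 calls and 0 with an unadjusted limma p under 0.05. Of all tested genes, 3.13% were called and 17.9% had such a p, so counts of 0 among so few genes do not set these members apart. For each of the 7 the 95% interval lay within 1 of 0, against 83.0% of all tested protein-coding genes. Jcad, which encodes a protein of endothelial cell-cell junctions (4634878 to 4682869, 0.957 Mb to the left), was at 53.1 and 51.2 in controls against 49.2 and 49.95 FPKM in Zeb1-CKO. Its log2 fold change was -0.07, with a 95% interval from -0.38 to 0.24 and a limma adjusted p of 0.810.

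Kif5b, the heavy chain of the microtubule motor kinesin-1 (6201002 to 6242174), was also abundant and close, at 0.650 Mb to the right. It was at 49.7 and 50.9 in controls against 51.6 and 45.9 FPKM in Zeb1-CKO, with a log2 fold change of -0.05 (95% interval -0.37 to 0.28). The 2 genotypes overlapped in Kif5b, and the controls lay between the Zeb1-CKO libraries.

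Zfp438, a zinc-finger gene and the nearest member, was at 2.43 and 1.63 in controls against 2.01 and 1.75 FPKM in Zeb1-CKO. Arhgap12, a GTPase-activating protein gene and the nearest on the other side, was at 4.42 and 3.21 against 3.57 and 5.17 FPKM. In both genes the genotypes overlapped, and the sign of the fold change turned with the library left out.

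Svil, which encodes the actin- and myosin-binding protein supervillin, was at 8.18 and 8.68 in controls against 7.77 and 7.16 FPKM in Zeb1-CKO. Epc1, a scaffold of the NuA4 histone acetyltransferase complex, was at 8.25 and 8.82 against 6.99 and 7.57 FPKM. Both were lower in both Zeb1-CKO libraries, by -0.16 and -0.20 on the log2 scale, and neither passed, with limma adjusted p of 0.619 and 0.516.

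Rpl27-ps3 was at 9.69 and 11.1 in controls against 9.08 and 6.87 FPKM in Zeb1-CKO. Although typed protein-coding in the table, it is a pseudogene in GENCODE M21, and 411 bases of its transcript are 100% identical to the ribosomal protein gene Rpl27, itself at 87.4 to 109 FPKM. Its value is therefore uncertain. With Jcad, Svil and Epc1 it was among the 4 of 7 near members whose genotypes did not overlap, all lower in Zeb1-CKO; of all tested genes, 49.4% did not overlap and 22.3% were lower in this way.

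Colec12 (9707595 to 9882644, 4.12 Mb to the right) was at 18.5 and 18.6 in controls against 9.92 and 8.82 FPKM in Zeb1-CKO. The controls nearly coincided, and both Zeb1-CKO libraries lay far below them. Its mean was 18.6 ± 0.0160 in controls against 9.37 ± 0.773 FPKM in Zeb1-CKO (SD, n = 2 each), 1.98-fold lower, a log2 fold change of -0.92 (SE 0.14) with a limma adjusted p of 0.0315. The call ended without any 1 library: the adjusted p was 0.0864 without control replicate 1, 0.0925 without control replicate 2, 0.131 without Zeb1-CKO replicate 1 and 0.168 without Zeb1-CKO replicate 2, at log2 fold changes of -0.99 to -0.84. It also ended when no filter on low values was used (adjusted p of 0.130), at an unchanged log2 fold change. There the unadjusted limma p was 0.000647, against 0.000663 with the filter, and the adjustment ran over 38986 genes against 13651.

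Among the marker lists of other cells, 4 were at lower levels in Zeb1-CKO like Colec12, and others were not. Lower lists included those of mural cells, the pericytes and smooth-muscle cells around vessels. All 8 pericyte markers had a negative log2 fold change, with a median of -0.35, and none was called by limma; all 4 tested of the 5 smooth-muscle markers were negative, with a median of -0.79 and 1 called, Tagln. None of these defining markers was at 0 in any library. Of 11 microglial and myeloid markers, 8 were tested and all 8 were negative, with a median of -1.37 and 0 called; Aif1 was at 0 in 1 library. One of the 3 untested, P2ry12, was higher in Zeb1-CKO, at 0.615 and 0.441 in controls against 0.861 and 0.993 FPKM. All 4 red-cell markers were negative, with a median of -1.44 and 0 called. Their part in the fall of Colec12 was not tested. The member Gm17430, typed protein-coding in the table, is a processed pseudogene in GENCODE M21. It lies within the span of Colec12 on the opposite strand and shares no exon base with it there. Gm17430 was at 1.37 and 0.900 FPKM in controls, at 0.187 FPKM in Zeb1-CKO replicate 1 and listed at 0 in Zeb1-CKO replicate 2. Its mean was below 1 FPKM, so it was not tested, and the libraries do not mark strand.

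The other 5 members with an unadjusted p under 0.05 did not pass over all genes. Wac, an adaptor protein that links histone H2B ubiquitination to transcription (2.28 Mb to the right), was at 11.4 and 9.97 in controls against 7.09 and 6.29 FPKM in Zeb1-CKO. Its log2 fold change was -0.61 (SE 0.15), with an unadjusted limma p of 0.00773 and an adjusted p of 0.109. Both Zeb1-CKO libraries were below both controls.

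Psma8, a proteasome core subunit known from germ cells (9.11 Mb to the right), was at 4.55 and 2.79 in controls against 1.91 and 1.27 FPKM in Zeb1-CKO. The log2 fold change was -0.83 with a wide 95% interval, from -1.46 to -0.20, and a limma adjusted p of 0.171. Ankrd29, an ankyrin-repeat gene, was at 3.67 and 2.32 in controls against 1.53 and 1.54 FPKM in Zeb1-CKO (log2 fold change -0.63, adjusted p 0.224). In both genes the genotypes did not overlap, but the controls differed widely, with control replicate 1 the higher.

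Tmem241, a multi-pass membrane protein gene (6.53 Mb to the right), was the member with the largest positive fold change, at 2.30 and 3.28 in controls against 4.55 and 5.87 FPKM in Zeb1-CKO (log2 fold change 0.72, SE 0.21, limma adjusted p 0.153). Cul2, the scaffold of the cullin-RING ubiquitin ligase that holds the VHL protein, lies on the other side of Zeb1, 2.21 Mb to the left. It was at 9.23 and 7.84 in controls against 11.7 and 11.0 FPKM in Zeb1-CKO (log2 fold change 0.38, limma adjusted p 0.270). Both genes were higher in both Zeb1-CKO libraries than in both controls.

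**Figure D3:**
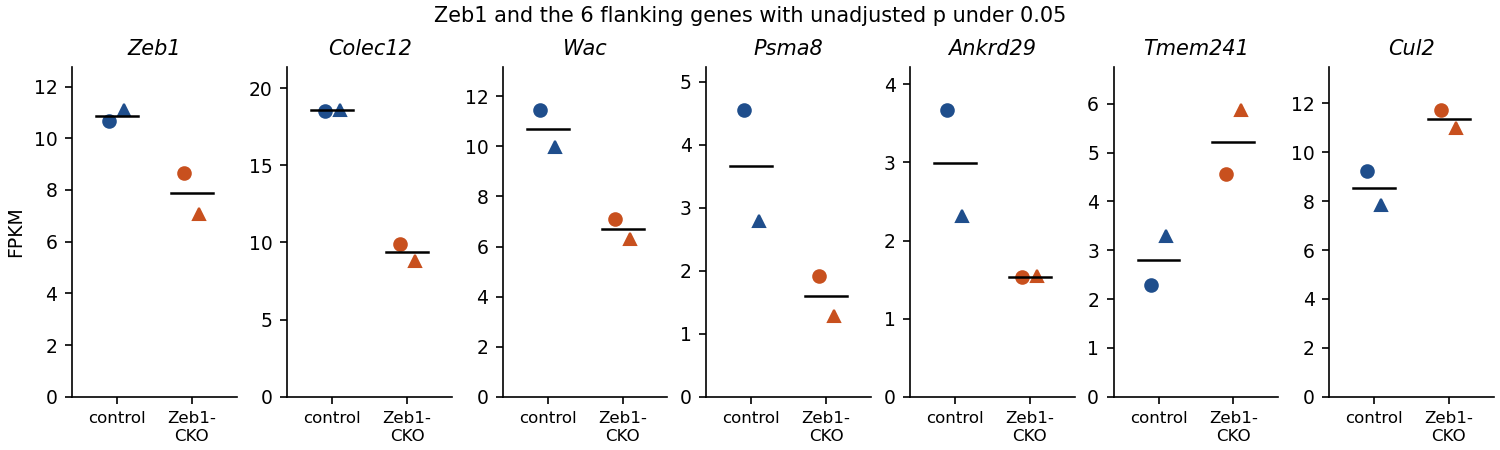
FPKM (vertical axis, from 0) of Zeb1 and the 6 flanking genes with an unadjusted limma p under 0.05 in the 2 control (blue) and 2 Zeb1-CKO (orange) libraries; circles are replicate 1, triangles replicate 2 and bars the mean of 2. The genotypes do not overlap in any of the 7 genes; Colec12 is the only one of them called over all genes, and Tmem241 and Cul2 are the ones higher in Zeb1-CKO.

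The members nearest Zeb1 did not have the largest fold changes. With 0 calls under 1 Mb (7 tested), 0 between 1 and 3 Mb (8 tested), 1 between 3 and 6 Mb (9 tested) and 0 beyond 6 Mb (13 tested), the count of unadjusted limma p under 0.05 was 0, 2, 1 and 3. The median absolute log2 fold change in these bands was 0.15, 0.19, 0.19 and 0.16, and the count of members whose genotypes did not overlap was 4, 3, 4 and 8. With so few genes in a band, these counts stand against 3.13% of all tested genes called, 17.9% with an unadjusted p under 0.05 and 49.4% without overlap. With sign, the band medians were -0.07, -0.09, 0.03 and 0.11. Negative fold changes were found in 6 of 7, 6 of 8, 4 of 9 and 5 of 13 members, against 6443 of 13651 tested genes. Across the 37 tested members, which share the same 4 libraries, signed log2 fold change had a Pearson r of 0.13 with distance. Its Spearman rank correlation was 0.18. The absolute log2 fold change had 0.17 and 0.21, and all 4 values were weak. Whether the sign changes with distance was not tested. The rank correlation of the absolute fold change was 0.0185 without control replicate 1 and 0.0408 over the 25 members with a mean of at least 5 FPKM.

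Calls on both sides of Zeb1 stand against 3.13% of all tested genes called and 17.9% with an unadjusted limma p under 0.05. On the left, 8 of 11 members were tested, with 0 calls, 1 unadjusted limma p under 0.05 (Cul2) and a median log2 fold change of -0.07. On the right, 29 of 43 were tested, with 1 call (3.45%), 5 unadjusted p under 0.05 (17.2%) and a median of -0.02. Whether the sides differ was not tested. At the limit of 15 Mb, the last gene inside, Taf4b, was at 4.31 and 3.37 in controls against 3.77 and 2.91 FPKM in Zeb1-CKO. The first gene outside, Kctd1, was at 1.74 and 0.955 against 0.896 and 0.719 FPKM.

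**Figure D4:**
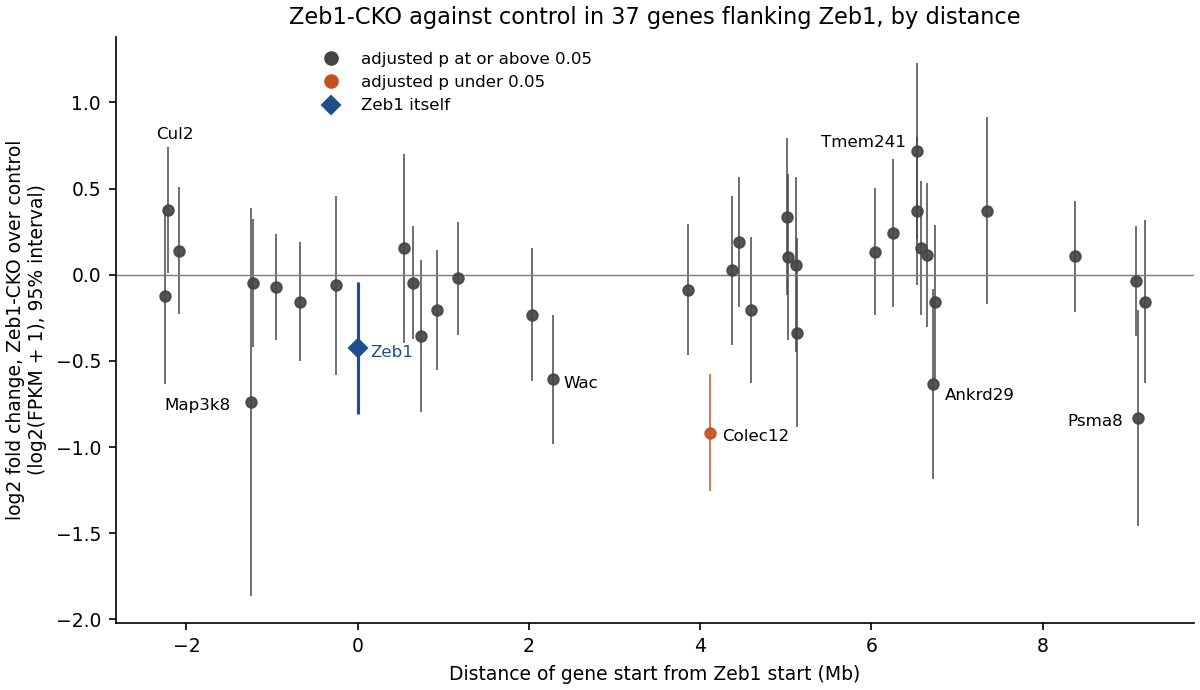
Log2 fold change of Zeb1-CKO over control on the log2(FPKM + 1) scale with its 95% interval (vertical axis) against the distance of the gene start from that of Zeb1 in Mb (horizontal axis), for the 37 tested flanking genes and Zeb1 (blue diamond at 0). Orange marks Colec12, the 1 called member, at 4.12 Mb; the 7 genes within 1 Mb lie between -0.35 and 0.15.

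By function, the neighbours of Zeb1 are a mixed set. The counts given per list stand against 3.13% of all tested genes called and 17.9% with an unadjusted limma p under 0.05. Each list is too small to compare with these shares. Of 13 members that act in transcription, chromatin or nuclear RNA handling, 10 were tested, with 0 calls and 1 unadjusted limma p under 0.05 (Wac), and a median log2 fold change of -0.05. After Wac, the largest fold change in this list was that of Esco1, an acetyltransferase for cohesin, at 7.35 and 7.30 in controls against 11.2 and 8.06 FPKM in Zeb1-CKO (log2 fold change 0.34, adjusted p 0.411). The endoderm and vascular factor gene Gata6 was at 0.137 FPKM or less in every library and was not tested. Neither the haematopoietic zinc-finger gene Zfp521, at 17.6 and 17.8 against 18.4 and 19.8 FPKM, nor Ss18, a chromatin-remodelling subunit, at 23.7 and 22.7 against 21.9 and 23.3 FPKM, passed. Crem, a transcription factor of the cyclic AMP response, was at 11.5 and 10.8 in controls against 12.4 and 8.23 FPKM in Zeb1-CKO, so the genotypes overlapped. Rbbp8, a factor of DNA end resection also called CtIP, was at 8.19 and 8.81 against 10.2 and 8.75 FPKM and overlapped as well.

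Of 6 members listed for endothelial junctions, Notch and Wnt signalling, 4 were tested, with 0 calls and 0 unadjusted limma p under 0.05. Mib1, the ubiquitin ligase that activates Notch ligands by driving their endocytosis, was at 6.96 and 10.2 in controls against 7.36 and 5.70 FPKM in Zeb1-CKO. Mpp7, a scaffold of tight junctions and cell polarity, was at 5.01 and 5.38 against 3.92 and 4.65 FPKM. Their log2 fold changes were -0.34 and -0.23, and the genotypes overlapped in Mib1 and not in Mpp7. Mib1 was at -0.59 without control replicate 1 and -0.09 without control replicate 2. Bambi, a decoy receptor of the TGF-beta family, was at 28.7 and 30.6 in controls against 29.9 and 35.9 FPKM in Zeb1-CKO. The Wnt receptor gene Fzd8 was at 0.429 to 0.845 FPKM and was not tested.

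Of 9 members that encode kinases, cyclin partners or cytoskeletal proteins, 8 were tested, with 0 calls and 0 unadjusted limma p under 0.05. Map3k8, the kinase that couples inflammatory receptors to ERK signalling, was at 6.58 and 13.8 in controls against 3.33 and 8.32 FPKM in Zeb1-CKO. Its log2 fold change of -0.74 had the widest 95% interval among the tested members, from -1.87 to 0.39, and replicates of 1 genotype differed more than the genotypes did. Control replicate 2 was the highest library for Map3k8 and also for the summed microglial and myeloid markers (95.9 FPKM). Zeb1-CKO replicate 2 was the next highest for Map3k8 (8.32 FPKM) but the lowest for these markers (13.1 FPKM). The part of microglial and myeloid cells in the values of Map3k8 was not tested. Riok3, an atypical kinase of ribosome maturation, was at 19.2 and 18.2 against 28.1 and 21.2 FPKM (log2 fold change 0.37, adjusted p 0.340). Rock1, a kinase that drives actomyosin contraction, was at 15.5 FPKM in each control and at 15.4 and 11.6 FPKM in Zeb1-CKO libraries. Ccny, cyclin Y, was at 12.3 and 11.8 against 12.5 and 10.2 FPKM. Cables1, an adaptor that binds cyclin-dependent kinases, was at 3.18 and 2.70 against 4.01 and 3.30 FPKM, and 1314 of its exon bases are shared with the opposite-strand gene Gm6277.

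All 4 listed members of the ubiquitin and proteasome system were tested: Cul2, Psma8, Mib1 and Usp14, with 0 calls and 2 unadjusted limma p under 0.05 in opposite directions (Cul2 higher, Psma8 lower). Of all tested genes, 17.9% had such a p, and 4 genes are too few to compare with that share. Usp14, a proteasome-bound deubiquitinase, was at 9.03 and 9.14 in controls against 11.6 and 9.55 FPKM in Zeb1-CKO. Usp14 and its neighbour Thoc1, of the mRNA export complex THO, share 2169 exon bases on opposite strands in GENCODE M21, so their reads cannot be fully told apart without strand. Thoc1 was at 11.1 and 9.97 in controls against 12.3 and 9.39 FPKM in Zeb1-CKO.

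Of 6 members of lipid, vesicle and lysosome biology, all were tested, with 0 calls and 1 unadjusted limma p under 0.05 (Tmem241). Their median log2 fold change was 0.14, and 5 of 6 were positive, against 7208 of 13651 tested genes. Rab18, a small GTPase of lipid droplets and the endoplasmic reticulum, was the most abundant member of the whole set, at 102 and 92.6 in controls against 98.9 and 92.3 FPKM in Zeb1-CKO. Its log2 fold change of -0.02 turned sign when libraries were rescaled to the same sum. Osbpl1a, an oxysterol-binding protein gene, was at 2.58 and 2.57 against 2.86 and 4.56 FPKM (log2 fold change 0.37, adjusted p 0.444). Npc1, the lysosomal cholesterol exporter, was at 2.83 and 3.57 against 3.50 and 3.57 FPKM, and shares 511 exon bases with Rmc1 on the opposite strand. Rmc1, a subunit of the Mon1-Ccz1 complex that activates the late endosomal GTPase Rab7, was at 5.48 and 4.84 against 5.42 and 6.33 FPKM. Abhd3, a phospholipase of the endoplasmic reticulum, was at 3.27 and 2.16 against 2.75 and 2.91 FPKM. Neither passed, and the genotypes overlapped in both.

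Among the 3 listed matrix and secreted or scavenger proteins, Colec12 fell, Lyzl1 was too low to test, and Lama3, the laminin alpha-3 chain of epithelial basement membranes, was at 1.86 and 1.70 in controls against 1.47 and 1.504 FPKM in Zeb1-CKO (log2 fold change -0.16, limma adjusted p 0.703). Of the 5 remaining listed members, 2 were tested. They were Ankrd29 and Mtpap, the mitochondrial poly(A) polymerase, which was at 16.9 and 14.0 in controls against 14.5 and 15.2 FPKM in Zeb1-CKO. Of 9 members in no list, 2 were tested, Rpl27-ps3 and Snrpd1, a core protein of spliceosomal snRNPs. Snrpd1 was at 44.5 and 43.4 in controls against 39.5 and 56.4 FPKM in Zeb1-CKO, which lay on either side of the controls.

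Some members lie close together. Of 6 neighbouring pairs with starts less than 25 kb apart, 5 were divergent, with starts facing away from each other on opposite strands. Tmem241 and Riok3, 7.31 kb apart, both had positive log2 fold changes (0.72 and 0.37), as did Esco1 and Snrpd1, 7.44 kb apart (0.34 and 0.10), although Snrpd1 turned negative when Zeb1-CKO replicate 2 was left out. Map3k8 and Mtpap had -0.74 and -0.05, Abhd3 and Mib1 0.06 and -0.34, and Ss18 and Psma8 -0.04 and -0.83. Ss18 and Psma8 start 23.2 kb apart.

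The 17 members below the mean of 1 FPKM were low in all 4 libraries, and Gm17430 was the only one above 1 FPKM in any. Cetn1 and 4921524L21Rik were listed at 0 in every library, and Vmn1r238, a vomeronasal receptor gene, was above 0 in 1. The transcription factor gene Mkx was at 0.0492 to 0.425 FPKM and the gene Greb1l at 0.292 to 0.467 FPKM. Gjd4, a connexin gene, was at 0.0485 to 0.361 FPKM, Cabyr, of the sperm tail, at 0.351 to 0.771 FPKM, and Ttc39c at 0.248 to 0.779 FPKM. The histamine receptor gene Hrh4 was listed at 0 in 2 libraries, control 2 and Zeb1-CKO 1, and the lysozyme-like gene Lyzl1 in both Zeb1-CKO libraries. No fold change is given for these genes, which lie below the tested level. By the depth estimate, which has no independent check, 1 fragment on a transcript of 2000 bases is worth 0.0225 to 0.0439 FPKM.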

How the data were processed

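Per the labels' protocols, amplification used the SMART-Seq v4 kit, library construction used NuGEN Ovation reagents, and reads were paired, of 150 bases; none of these steps marks strand. The authors used Trimmomatic 0.36, HISAT2 2.1.0 and StringTie 1.3.3 with mm10, per the submitters' processing notes; the sources used here give no settings or annotation release. The deposited values are FPKM per gene for each of 4 libraries; the unit was read from the values and tools. Depth was estimated by taking the commonest lowest step of FPKM times length as 1 fragment, in genes with 1 transcript longer than 600 bases. Within 0.02, 11.4% to 14.8% of low values fell on whole steps, where 4% would at random. That share includes the 335 to 544 values per library at the step of 1, which the estimate was chosen to make commonest. The share therefore cannot check the estimate. Amplified reads carry no molecular identifiers, so depth overstates independent molecules.

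Genotype was the only term of the model, fitted to log2(FPKM + 1) in limma 3.58.1 (R 4.3.3) with the variance trend on. The code was also run on data simulated from the fit's own means and variances. Such a run cannot show how well the calls hold for these libraries. Fold changes on this scale understate the change of low genes. One marker list is not reported here. Members and lists were chosen with earlier results of these data known. Gene spans, exon overlaps and pseudogene types are from GENCODE M21 (mm10), matched by gene identifier for all 54 members; 33 start at the same base there. Near-identical transcripts were found with BLAST 2.17.0 (at least 95% identity over 80% of the shorter transcript and 200 bases). Named genes were Zeb1, members with an unadjusted p under 0.05, the 4 nearest tested on each side, the 5 most abundant, the 2 largest changes per list and the genes at the 15 Mb limit; the remaining members named were added after their values were seen. Alternatives changed the replicate block, the libraries, the pseudocount, the filter, the scaling, the variance model, the threshold or the window.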

Additional observations from a re-analysis of the deposited data

How the results depend on the processing

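With 2 libraries per genotype, counts of calls moved with the setting. Over all genes, 427 calls became 193 with the replicate number as a block, 66 to 281 without 1 library, 85 with no filter on low values, 257 with the minimum mean raised to 5 FPKM and 859 at an adjusted p under 0.1; the cause was not tested, except that fewer samples or genes enter some of these fits. The 1 called member, Colec12, was not called with the block (0 members, adjusted p of 0.0927), without any 1 library (0 in each) or with no filter (0 among 52 members), and no member lay within 2 Mb of Zeb1 and was called (0 of 10 tested); pseudocounts, scalings, variance models and the other windows kept it as the only member called. Same-numbered libraries deviated with a Pearson r of -0.118 over genes, and nothing in the labels pairs them; with the numbers crossed as a block, chosen after seeing the data, 455 genes and 1 member were called. The median absolute log2 fold change of the members, 0.16, was 0.15 to 0.20 without 1 library, 0.19 and 0.11 at pseudocounts of 0.1 and 5, 0.19 after rescaling to equal sums, 0.20 after quantile normalization, 0.23 over all gene types and 0.11 within 2 Mb. The rank correlation of absolute log2 fold change with distance, 0.21, was 0.0408 at a mean of at least 5 FPKM and 0.0185 to 0.272 without 1 library. Of 27 named genes, 6 with small fold changes turned sign in some fit without 1 library: Zfp438 (-0.25 to 0.13), Mtpap (-0.175 to 0.0747), Arhgap12 (-0.0635 to 0.368), Kif5b (-0.128 to 0.0369), Rab18 (-0.0876 to 0.0441, and 0.00987 after rescaling to equal sums) and Snrpd1 (-0.15 to 0.36). Esco1 (0.12 to 0.55), Riok3 (0.17 to 0.57), Osbpl1a (0.11 to 0.64), Mib1 (-0.59 to -0.09) and Map3k8 (-1.29 to -0.19) kept their sign without 1 library but moved by over 1.5 times from the value with all libraries. So did Ankrd29 (-0.88 to -0.39), Kctd1 (-0.60 to -0.11), Rpl27-ps3 (-0.53 to -0.17) and Mpp7 (-0.33 to -0.13). The same held for Taf4b (-0.30 to -0.01), Svil (-0.21 to -0.10), Jcad (-0.10 to -0.05) and Bambi (0.01 to 0.27). Smaller moves from the value with all libraries still gave wide ranges in Zeb1 (-0.56 to -0.30), Psma8 (-1.11 to -0.56), Cul2 (0.27 to 0.48) and Tmem241 (0.53 to 0.90). Wac (-0.70 to -0.52), Epc1 (-0.25 to -0.15) and Lama3 (-0.20 to -0.12) also moved less than 1.5 times from that value. Depth, estimated as lowest in control 2 at 11400000 fragments without an independent check, and 100 cells per library both limit the lowest members. Their shares in that limit were not compared.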

Other observations

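The same stretch of chromosome 18 holds 56 rows of other gene types, of which 10 reached a mean of 1 FPKM. By limma on log2(FPKM + 1), 0 of the 10 were called over all genes, and 5 had an unadjusted p under 0.05 (50%), against 17.9% of all tested genes. In 8 the genotypes did not overlap (80%), 6 lower and 2 higher in Zeb1-CKO, against 49.4% of all tested genes. Their median log2 fold change was -0.54, and 2 lay beyond 1 in either direction (20%), against 4.28% of all tested genes. The 10 rows had a median level of 2.19 FPKM, against 5.49 FPKM over all tested genes. Gm16147, a processed pseudogene within the span of Zeb1 on the opposite strand, was at 4.78 and 3.43 in controls against 2.18 and 0.394 FPKM in Zeb1-CKO (log2 fold change -1.27, adjusted p 0.187). It shares no exon base with Zeb1 in GENCODE M21, and the libraries do not mark strand. Gm10557, another pseudogene, was higher in Zeb1-CKO, at 6.81 and 6.40 against 12.8 and 11.1 FPKM (log2 fold change 0.77, adjusted p 0.0601), and is uncertain because its transcript has near-identical copies elsewhere.

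Mir133a-1hg, the host transcript of a microRNA known from cardiac, skeletal and smooth muscle, lies within the span of Mib1 on the opposite strand. It was at 2.14 and 2.31 in controls against 1.08 and 0.555 FPKM in Zeb1-CKO, with a log2 fold change of -0.84 and a limma adjusted p of 0.130. The overlapping Mir1b row was at 4.41 and 6.78 against 4.07 and 1.95 FPKM (log2 fold change -0.75, adjusted p 0.297). Summed smooth-muscle markers were also lower, at 393 and 536 in controls against 229 and 308 FPKM in Zeb1-CKO, and their part in these values was not tested. Mib1 itself shares no exon base with either row in GENCODE M21.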
